A study of Mus musculus with 4 samples.

Results

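Hox genes encode homeodomain transcription factors, and the data held all symbols made of Hox, a cluster letter from a to d and a number, which gave 39 genes of the 32285 listed. They were described in fibroblast-like, submesothelial-like, mesothelial-like and tumour-like cells of each library. In mammals the Hox genes lie in 4 clusters, and each gene belongs to a numbered paralog group by its place in its cluster. The order along a cluster follows the order along the body: low-numbered genes are switched on anteriorly and high-numbered genes posteriorly, so that the set of Hox genes a mesenchymal cell transcribes records where in the body its tissue formed. Adult fibroblasts of different body sites are known to keep such a code, whereas the epithelium of the pancreas comes from the foregut endoderm and is patterned chiefly by other homeobox genes such as Pdx1. Hox proteins bind DNA together with TALE cofactors of the Meis, Pbx and Pknox families.

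The study compared ways of preparing mouse pancreatic tumours for droplet sequencing of their fibroblasts, the matrix-producing stromal cells. Tumours of the KPC-4545 and KPC-3403 lines of KPC pancreatic ductal adenocarcinoma cells had been implanted in the pancreas of C57BL/6J mice with no treatment and were taken on day 13. Each line gave 1 enriched library, sorted to leave out cells with surface CD45, CD31, EPCAM or TER119, and 1 whole library of the unsorted suspension. The labels used here give neither the alleles of the lines nor whether a line is 1 clone. Nor do they say whether the libraries of a line came from separate or pooled animals. Every p given here reflects the spread over the 3 or 4 libraries of its fit alone, which may be technical. Ranges of p over alternatives include fits of 2 libraries. In the interaction test further below, p reflects only the spread between the KPC-3403 libraries.

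For KPC-4545 the enriched library held 47207893 UMIs (unique molecular identifiers, each counting 1 captured RNA molecule) in all and gave 1502 cells, and the whole library 5746733 UMIs and 534 cells. For KPC-3403 the numbers were 51450719 UMIs and 2470 cells enriched, and 13990046 UMIs and 1100 cells whole. Libraries shared cell barcodes: 132 were called as cells in both the enriched KPC-4545 and the whole KPC-3403 library, against 6 to 8 in each other pair of libraries. A barcode with at least 10-fold more UMIs in another library was therefore removed, which left 0 to 3 shared barcodes per pair. With the shared barcodes kept, the Hox level of fibroblast-like cells was 2.35 UMIs per 10000 UMIs in enriched KPC-4545, 2.78 in enriched KPC-3403 and 3.02 in whole KPC-3403, against 2.37, 2.76 and 2.98 without them. Hox genes took no part in the clustering that made the classes.

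The classes carried the markers of their names, but the submesothelial-like class was less set apart by its own list. The 12 fibroblast markers summed to 417, 387 and 295 UMIs per 10000 UMIs in the fibroblast-like cells of enriched KPC-4545 and of enriched and whole KPC-3403, against 1.48, 3.51 and 0.0973 in the tumour-like cells of those libraries. In enriched KPC-3403, Upk3b, a uroplakin of mesothelium, stood at 4.45 UMIs per 10000 in mesothelial-like, 0.559 in submesothelial-like and 0.0316 in fibroblast-like cells. Wt1, a transcription factor of mesothelium and its submesothelial stroma, stood at 2.08, 2.32 and 0.626 in the same order of classes. Tumour-like cells held Krt18, a simple-epithelial keratin, at 11.6, 22.1, 20.1 and 23.5 UMIs per 10000 in the order enriched and whole KPC-4545, enriched and whole KPC-3403. Epcam, whose product was sorted against, was at 0.00151 in the enriched KPC-4545 tumour-like cells, against 4.18, 0.347 and 5.37 in the others.

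The stromal classes all carried Hox RNA at similar summed levels, and tumour-like cells carried far less. Over the 39 genes, fibroblast-like cells held 2.37 Hox UMIs per 10000 UMIs in enriched KPC-4545 (95% exact Poisson interval 1.95 to 2.84, 51 cells), 2.76 in enriched KPC-3403 (2.64 to 2.88, 545 cells) and 2.98 in whole KPC-3403 (2.59 to 3.41, 49 cells). The 6 fibroblast-like cells of whole KPC-4545 gave 1.89 (0.945 to 3.39). In enriched KPC-3403 the level was 2.54 in 965 submesothelial-like cells (2.46 to 2.61) and 2.41 in 172 mesothelial-like cells (2.26 to 2.57). These intervals, and every other interval and floor given, cover counting error only. When classes were made with marker gene gates in place of clusters, the enriched KPC-4545 fibroblast level was 0.973, while the enriched KPC-3403 level was 2.38.

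Tumour-like cells held 0.462 Hox UMIs per 10000 in enriched KPC-4545 (0.436 to 0.488, 732 cells), 0 of 1139901 UMIs in whole KPC-4545 (3 UMIs would be 0.0263 per 10000, 62 cells), 0.0335 in enriched KPC-3403 (0.0241 to 0.0452, 707 cells) and 0.0113 in whole KPC-3403 (0.00367 to 0.0264, 261 cells). For comparison, in the unsorted libraries T-like cells had 0.0864 (whole KPC-4545) and 0.0596 (whole KPC-3403) and B or plasma-like cells 0 and 0.0388. Barcodes of at most 100 UMIs, which sample the free RNA of a suspension, held 0.4426 Hox UMIs per 10000 in enriched KPC-4545, 0.3105 in whole KPC-4545, 2.033 in enriched KPC-3403 and 0.449 in whole KPC-3403. Taking 10% of each cell's UMIs as free RNA and removing it left 0.464 in the tumour-like cells of enriched KPC-4545, 0 in those of both KPC-3403 libraries, and 2.58, 2.84 and 3.26 in the fibroblast-like cells. The part of free RNA in the low tumour-like values was not tested. The share of cells with a Hox UMI was 38.7% in the enriched KPC-4545 tumour-like cells at a median of 35268.5 UMIs per cell, against 3.73% in whole KPC-4545 T-like cells at 3833. Thinned to 2000 UMIs per cell, the shares were 9.68% (19 shallower cells left out) and 0.917% (25 left out).

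**Figure D1:**
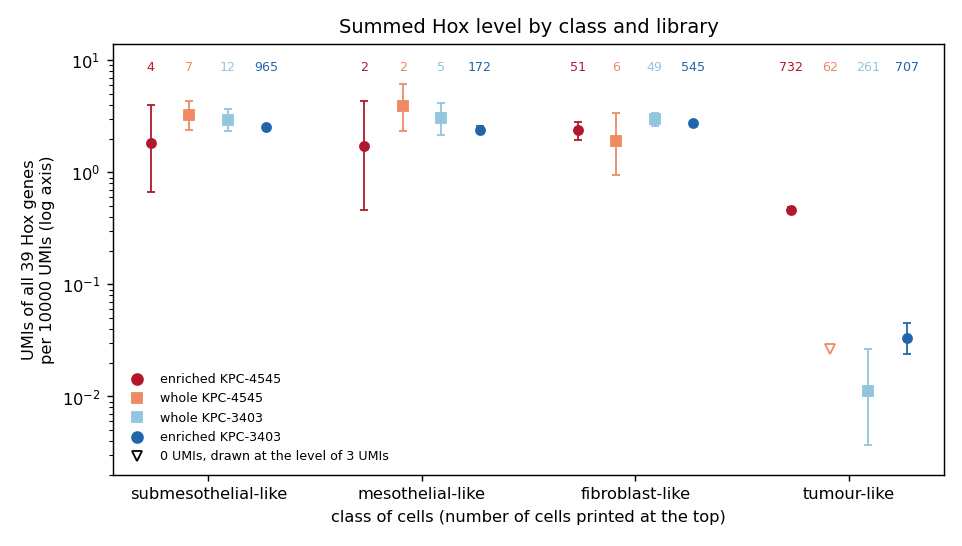
Hox UMIs per 10000 UMIs (log axis) in each class and library, with exact Poisson 95% intervals. The number of cells is printed above each point, and an open triangle marks 0 UMIs drawn at the level of 3. Stromal groups lie between 1.71 and 3.91, the enriched KPC-4545 tumour-like cells at 0.462, and the other tumour-like cells at or under 0.0335.

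Of the 39 genes, 24 reached 20 UMIs over the 4 classes and all libraries. The other 15 had at most 17, and 6 of them (Hoxa13, Hoxc12, Hoxc13, Hoxd1, Hoxd12 and Hoxd13) had none. Apart from Hoxd1, those 6 are the posterior-most genes of Hoxa, Hoxc and Hoxd. UMIs count molecules and are not scaled by gene length, and the files were made from 5′ ends. Neighbouring Hox genes overlap: Hoxc5 and Hoxc10 share 166 exon bases on the same strand and Hoxd3 and Hoxd4 share 388, and Hoxb3 has 52.9% and Hoxa11 35% of its exon bases opposite an antisense gene. Hoxb2 has 27.3% of its exon bases opposite an antisense gene. The bases shared on the same strand are 5.37% of the exon bases of Hoxc5, 8.7% of Hoxc10, 9.26% of Hoxd3 and 13.2% of Hoxd4. RNA of those shared bases alone cannot be assigned to 1 gene by position. The sources used here do not give the strand setting of the counting, so it is not known whether antisense RNA was counted with such genes.

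Which Hox genes separated fibroblast-like from tumour-like cells was tested with edgeR on UMIs summed per class in the 3 libraries with 20 or more cells of both, with library as a block. Of 13042 genes tested, 1605 were higher in fibroblast-like cells (12.3%) and 1316 lower (10.1%). Of the 39 Hox genes 22 passed the filter on low counts, 16 of them were higher, and none was lower. Genes at or near 0 in tumour-like cells could pass that filter only through fibroblast-like cells, so the count describes the 22 and is no evidence about the family. With the enriched KPC-3403 library left out, 10 Hox genes were tested and 3 called, beside 672 of 10913 genes higher. Whole KPC-4545, with 6 fibroblast-like cells, did not enter this fit.

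The genes called were the tested Hoxa genes from Hoxa3 to Hoxa10, Hoxb2 and Hoxb3, every Hoxc gene tested, and Hoxd4 and Hoxd8. Levels follow as UMIs per 10000 UMIs, in enriched KPC-4545 and in enriched and whole KPC-3403. Hoxa5 (ENSMUSG00000038253, chr6:52201754-52204587, minus strand of GRCm38), a patterning gene of the lung and the neck-to-chest border, was at 0.103, 0.382 and 0.156 in fibroblast-like cells, against 0.00113, 0.00478 and 0 in tumour-like cells. Its fitted log2 difference was 6.47 (SE 0.59, edgeR adjusted p = 0.000632). Hoxc8 (ENSMUSG00000001657, chr15:102990607-102994111, plus strand), a gene of the thoracic level, was at 0.0412, 0.244 and 0.284 in fibroblast-like cells, against 0 in the tumour-like cells of every library (edgeR adjusted p = 0.00193). At a floor of 3 UMIs it was at least 102-fold higher in the fibroblast-like cells of enriched KPC-3403 and at least 41.8-fold higher in those of whole KPC-3403. Both genes were thus higher in fibroblast-like cells in each of the 3 libraries, but on few UMIs in enriched KPC-4545. There Hoxa5 had 5 fibroblast-like UMIs, and the Hoxc8 level lies under that of 3 UMIs (0.0617). Any other fibroblast-like level under 0.0617 in that library likewise rests on fewer than 3 UMIs.

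Hoxb2 (ENSMUSG00000075588, chr11:96350525-96354012, plus strand), which acts in hindbrain patterning, was the Hox gene with the most fibroblast-like UMIs. It was at 0.597, 0.515 and 0.355 in fibroblast-like cells, against 0.0395, 0.00159 and 0 in tumour-like cells, a log2 difference of 5.82 (SE 1.14, edgeR adjusted p = 0.0259). That call was kept in 12 of 16 alternatives, with adjusted p from 2.6e-12 to 0.122. Its neighbour Hoxb3 was at 0.123, 0.0759 and 0.0993 in fibroblast-like cells, against 0.0117, 0.000797 and 0 in tumour-like cells (log2 4.86, SE 0.97, adjusted p = 0.0124).

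The other called Hoxa genes lay on both sides of Hoxa5 in level: in enriched KPC-4545 Hoxa3 was above it, and in both KPC-3403 libraries Hoxa5 was the highest of the Hoxa genes. Hoxa3, which acts in the third pharyngeal pouch and so in thymus and parathyroid formation, was at 0.144, 0.121 and 0.0851 in fibroblast-like cells, with 1, 15 and 1 UMIs in tumour-like cells (log2 4.92, SE 0.97, edgeR adjusted p = 0.0132). Hoxa7 was at 0.0617, 0.17 and 0.0851 in fibroblast-like cells, with 0, 2 and 0 tumour-like UMIs (log2 7.29, SE 0.90, adjusted p = 0.00183). Hoxa4 was at 0.0412, 0.043 and 0.0426 in fibroblast-like cells and at 0 in tumour-like cells (adjusted p = 0.0149). The more posterior members Hoxa9, a partner of Meis1 in leukaemia, and Hoxa10, which patterns the lumbar level and the uterus, had fewer UMIs than Hoxa3, Hoxa4, Hoxa5 and Hoxa7 in the enriched libraries, but in whole KPC-3403 Hoxa10 had more than Hoxa3, Hoxa4 and Hoxa7. Hoxa9 had 0, 29 and 5 fibroblast-like UMIs and 1, 0 and 0 tumour-like UMIs (adjusted p = 0.0228). Hoxa10 had 1, 13 and 7 fibroblast-like UMIs and 4, 2 and 1 tumour-like UMIs (log2 3.97, SE 1.00, adjusted p = 0.0282).

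The Hoxc genes were nearly absent from tumour-like cells. Hoxc4 was at 0.0412, 0.0683 and 0.0568 in fibroblast-like cells and Hoxc5 at 0.0617, 0.0658 and 0.0426, and each had 1 tumour-like UMI in all (edgeR adjusted p = 0.00488 and 0.0048). Hoxc6 was at 0.0823, 0.118 and 0.0993 in fibroblast-like cells, with 1, 7 and 1 tumour-like UMIs (log2 5.28, SE 0.80, adjusted p = 0.00411). Hoxc9, another gene of the thoracic level, was at 0.0617, 0.144 and 0.0993 in fibroblast-like cells, with 1, 0 and 0 tumour-like UMIs (adjusted p = 0.00166). Hoxc10, of the lumbar group, was at 0.0412, 0.0215 and 0.0851, and the Hoxd genes Hoxd4 and Hoxd8 were at 0.0206, 0.0127 and 0.0709, and at 0.0412, 0.0936 and 0.142. All of these had 0 tumour-like UMIs (edgeR adjusted p = 0.0168, 0.0312 and 0.00552).

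The tested genes that were not called were Hoxa2, a gene of the second branchial arch, and Hoxb4 to Hoxb8. Hoxa2 had 4, 16 and 0 fibroblast-like UMIs and 0, 2 and 0 tumour-like UMIs (edgeR adjusted p = 0.0638). The Hoxb genes had adjusted p of 0.0506 (Hoxb4), 0.0684 (Hoxb5), 0.202 (Hoxb6), 0.0978 (Hoxb7) and 0.369 (Hoxb8). In both KPC-3403 libraries together their tumour-like cells had at most 2 UMIs of any of these 5 genes, and nearly all tumour-like UMIs of these genes were in enriched KPC-4545.

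**Figure D2:**
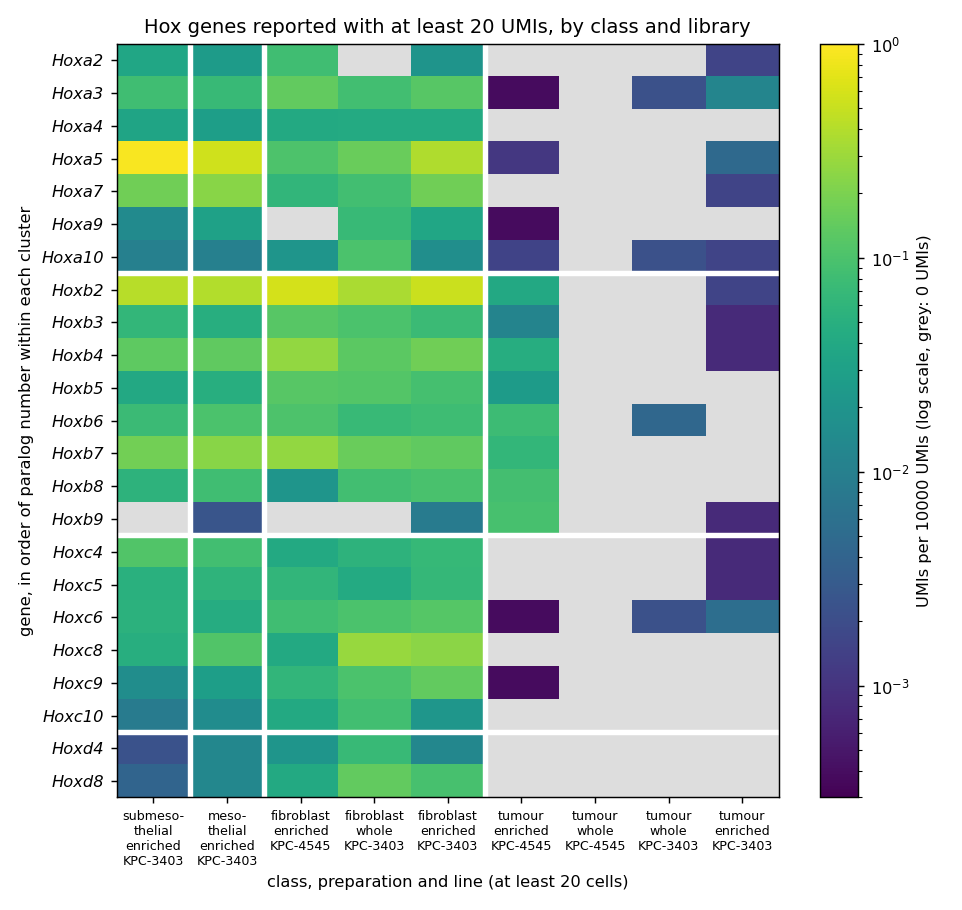
UMIs per 10000 UMIs (log colour scale, grey for 0 UMIs) of the Hox genes reported here with 20 or more UMIs, for each class and library with 20 or more cells, in paralog order within each cluster. Hoxa5 reaches 0.916 in submesothelial-like cells and Hoxb2 0.597 in fibroblast-like cells, and in tumour-like cells Hoxb genes fill the enriched KPC-4545 column, where Hoxb9 is at 0.0953.

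The stromal classes of enriched KPC-3403 shared a code centred on paralog groups 4 to 8 and differed in its posterior end. These groups gave 74% of Hox UMIs in submesothelial-like, 72.3% in mesothelial-like and 64.4% in fibroblast-like cells. Paralog groups 9 to 13 gave 1.96% in submesothelial-like cells (exact Clopper-Pearson 95% interval 1.57 to 2.42), 3.61% in mesothelial-like cells (2.51 to 5.01) and 8.44% in fibroblast-like cells (7.3 to 9.68). The 3 intervals do not overlap, but the fibroblast-like share depends on the mix of fibroblast-like clusters. Cluster 13, with 103 of the 545 cells, gave 74 of the 184 UMIs of these groups. The share in cluster 8 lies within the mesothelial-like interval. The mean paralog number per Hox UMI was 4.77, 5.06 and 5.27 in that order. Submesothelial-like and mesothelial-like cells came almost wholly from this library, so these are differences within 1 library with no test. The few cells of whole KPC-3403 gave another order, with 37.8% in 12 submesothelial-like cells (26.8 to 49.9), 18.9% in 5 mesothelial-like cells (7.96 to 35.2) and 29% in 49 fibroblast-like cells (23 to 35.7).

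By cluster, Hoxa gave 50.3% of Hox UMIs in submesothelial-like, 40.9% in mesothelial-like and 29% in fibroblast-like cells, and Hoxb gave 38%, 43.6% and 42.8%. Hoxc gave 11.4%, 14.3% and 24%, and Hoxd gave 0.297%, 1.17% and 4.22%. Hoxa5 alone was at 0.916 UMIs per 10000 in submesothelial-like, 0.555 in mesothelial-like and 0.382 in fibroblast-like cells. It was 2.4-fold higher in submesothelial-like than in fibroblast-like cells (2.12 to 2.72) and 1.45-fold higher in mesothelial-like cells (1.21 to 1.74). The RefSeq promoter of Hoxa5 (GRCm38.p6, chr6:52204538-52204837, minus strand, 250 bases before to 50 after the start) is shown because Hoxa5 led these classes; it holds no match to TGATNNAT, the Hox-Pbx pattern searched on both strands, and so has no capitals.
Hoxa5: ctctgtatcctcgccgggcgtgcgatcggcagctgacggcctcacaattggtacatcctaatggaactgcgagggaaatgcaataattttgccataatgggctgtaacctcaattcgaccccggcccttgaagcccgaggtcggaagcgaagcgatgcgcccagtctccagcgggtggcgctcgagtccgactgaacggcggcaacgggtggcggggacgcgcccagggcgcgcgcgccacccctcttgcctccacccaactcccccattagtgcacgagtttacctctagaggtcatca

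The posterior and Hoxd genes went the other way. Hoxc8 was at 0.0481 UMIs per 10000 in submesothelial-like, 0.11 in mesothelial-like and 0.244 in fibroblast-like cells, 0.197 times the fibroblast-like level in submesothelial-like cells (0.15 to 0.256) and 0.451 times in mesothelial-like cells (0.316 to 0.63). Hoxc9 was at 0.0162, 0.0281 and 0.144 in the same order, with ratios of 0.113 (0.0716 to 0.171) and 0.195 (0.0947 to 0.362). Hoxd8 (ENSMUSG00000027102, chr2:74704615-74707933, plus strand) was at 0.00406, 0.0128 and 0.0936, with ratios of 0.0433 (0.0168 to 0.0938) and 0.137 (0.0431 to 0.333). Among these sums the order of the classes was the same for these 3 genes and the reverse of that of Hoxa5. The Hoxa5 order depends on the mix of fibroblast-like clusters, which were at 0.635 (cluster 8), 0.25 (cluster 4) and 0.0454 (cluster 13), and cluster 8 lies above the mesothelial-like level. Hoxb7 was at 0.179 in submesothelial-like, 0.233 in mesothelial-like and 0.138 in fibroblast-like cells, and Hoxb2 at 0.415, 0.397 and 0.515.

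Of the 22 Hox genes with 20 or more UMIs in the submesothelial-like and fibroblast-like cells together, 1 was at least 2-fold higher in submesothelial-like cells (8.81% of all genes were) and 7 were at least 2-fold lower (10.3% of all genes). Of 21 in the mesothelial-like comparison, 1 was at least 2-fold higher than in fibroblast-like cells (9.43%) and 4 lower (12.2%). Between mesothelial-like and submesothelial-like cells 3 of 21 were at least 2-fold higher (5.17%) and 0 lower (5.85%). Among those, Hoxc8 was 2.29-fold higher in mesothelial-like cells (1.54 to 3.34).

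**Figure D3:**
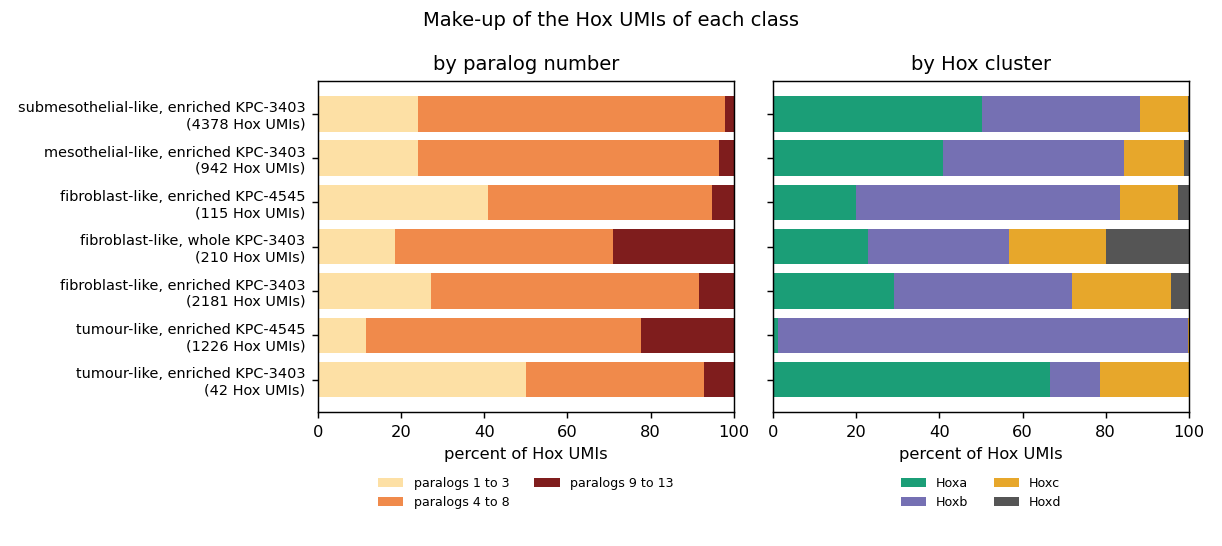
Share of Hox UMIs (percent) by paralog group, 1 to 3, 4 to 8 and 9 to 13, and by cluster, for the 7 classes and libraries drawn, with their Hox UMIs printed beside them. Among the stromal bars the share of groups 9 to 13 runs from 1.96% in enriched KPC-3403 submesothelial-like cells to 29% in whole KPC-3403 fibroblast-like cells.

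Fibroblast-like cells were not uniform. In enriched KPC-3403 they fell into clusters led by Sfrp4, Apod and Pi16 (cluster 4, 255 cells), by Tagln and Acta2, genes of contractile fibroblasts (cluster 8, 187 cells), and by Postn, Dlk1 and Dpt (cluster 13, 103 cells). Paralog groups 9 to 13 gave 25.3% of Hox UMIs in cluster 13 (20.5 to 30.7), 4.22% in cluster 8 and 9% in cluster 4, and Hoxc gave 47.6% in cluster 13. A UMI of groups 9 to 13 was found in 50 of 103 cells of cluster 13 (48.5%), in 27 of 187 of cluster 8 (14.4%) and in 39 of 255 of cluster 4 (15.3%). Against clusters 4 and 8 together, cluster 13 had 2.9 times the Hoxc9 level (1.95 to 4.27), 7.57 times the Hoxc10 level (2.57 to 24.9) and 6.61 times the Hoxa10 level (1.91 to 25.7). It had 0.098 times the Hoxa5 level (0.0391 to 0.205) and 0.0582 times the Hoxb5 level (0.00145 to 0.335). The ratios of Hoxc10 and Hoxa10 rest on few UMIs. In clusters 13, 4 and 8 Hoxc10 had 11, 3 and 3 UMIs and Hoxa10 had 8, 1 and 4, so neither enters the count that follows. Of 18 Hox genes with 20 or more UMIs, 1 was at least 2-fold higher (5.82% of all genes) and 8 lower (11.3%).

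In enriched KPC-3403 the contractile cluster 8 carried the most Hox RNA of the 3, at 3.56 Hox UMIs per 10000, against 2.23 in cluster 4 (ratio 1.6, 1.45 to 1.76) and 1.9 in cluster 13. Its Hoxa5 level was 2.54 times that of cluster 4 (1.94 to 3.36), its Hoxb2 level 2.12 times (1.68 to 2.7) and its Hoxb8 level 3.59 times (1.94 to 7.14), whereas its summed Hoxc level was 1.07 times. Of 18 Hox genes, 6 were at least 2-fold higher in cluster 8 than in cluster 4 (8.62% of all genes) and 0 lower (7.69%). In whole KPC-3403 the intervals of these clusters overlapped, with 2.88 Hox UMIs per 10000 in 20 cells of cluster 8 (2.33 to 3.53) and 3.06 in 29 cells of cluster 4 (2.53 to 3.68), and 1 and 5 Hoxb8 UMIs. In sums over cells fewer expressing cells and less RNA per cell cannot be told apart.

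Between lines, the enriched fibroblast-like cells of KPC-4545 had 0.858 times the summed Hox level of those of KPC-3403 (0.705 to 1.03), but with marker gene gates the levels were 0.973 in KPC-4545 and 2.38 in KPC-3403, further apart than with clusters. Hoxa5 was at 0.103 UMIs per 10000 in KPC-4545, against 0.382 in KPC-3403 (ratio 0.269, 0.0868 to 0.635), and Hoxc8 at 0.0412, against 0.244 (ratio 0.169, 0.0203 to 0.617). Hoxb7 was at 0.268 in KPC-4545, against 0.138 in KPC-3403 (ratio 1.94, 1 to 3.46). Of 19 Hox genes 2 were at least 2-fold higher in KPC-4545 (14.6% of all genes) and 6 lower (6.69%). The KPC-4545 values rest on 115 Hox UMIs, and the cells were spread unevenly over clusters, with 33 in cluster 4, 14 in cluster 8 and 4 in cluster 13.

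Within KPC-3403 the fibroblast-like cells of the whole library held Hox genes that those of the enriched library did not. Hoxd11 (ENSMUSG00000042499, chr2:74679557-74687016, plus strand), which with its paralogs patterns the sacral level, the kidney and the forearm, had 14 UMIs in whole KPC-3403 fibroblast-like cells (0.199 per 10000, 0.109 to 0.333) and 0 of 7904486 UMIs in enriched ones, at least 52.3-fold higher at a floor of 3 UMIs. Hoxd10 had 9 and 0 UMIs (at least 33.6-fold higher), and Hoxa11 had 7 and 0. Hoxc11 had 2 UMIs in the whole library. Fibroblast-like cells of enriched KPC-4545 had none of Hoxd10 or Hoxd11 either.

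Groups 9 to 13 together gave 29% of Hox UMIs in whole (23 to 35.7), against 8.44% in enriched KPC-3403 fibroblast-like cells, at 3.72 times the level (2.74 to 4.99), and the summed Hoxd level was 5.12 times as high (3.47 to 7.45). Hoxa10 was 6.04-fold higher in whole (2.04 to 16.3) and Hoxd4 5.61-fold (1.5 to 18), while Hoxa5 was at 0.408 times (0.202 to 0.741). The summed Hox level did not differ beyond counting error (ratio 1.08, 0.933 to 1.24). Of 20 Hox genes with 20 or more UMIs, 3 were at least 2-fold higher in whole (10.1% of all genes) and 1 lower (6.77%).

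The posterior RNA sat in few cells. Groups 11 to 13 gave 23 UMIs in 8 of 49 whole cells (16.3%, at most 6 UMIs in 1 cell), against 0 of 545 enriched cells, which allows a share of cells with such a UMI of up to 0.675% and sets no limit on cells that express these genes without a captured UMI. Hoxd11 was in 7 of the 49 (14.3%, 5.94 to 27.2). It was not limited to 1 fibroblast cluster, since groups 9 to 13 gave 30.4% of Hox UMIs in cluster 4 (22.2 to 39.7) and 27.4% in cluster 8 (18.7 to 37.5) of the whole library. The 12 submesothelial-like cells of whole KPC-3403 had 37.8% (26.8 to 49.9), against 1.96% in the 965 of enriched KPC-3403, and the 5 mesothelial-like cells had 18.9% (7.96 to 35.2), against 3.61%. The submesothelial-like marker list was lower in those 12 cells than in the fibroblast-like cells of that library (122 and 157 UMIs per 10000). Markers of other cells were also higher in these fibroblast-like cells: the 18 tumour markers summed to 5.94 UMIs per 10000 in whole (15 of 18 found) and 2.91 in enriched cells (17 of 18), and Pecam1, an endothelial gene, stood at 0.681 and 0.0152. Free RNA of whole KPC-3403 held 8.57% of its Hox UMIs in Hoxd, against 0.252% in enriched KPC-3403. The part of these markers and of free RNA in the difference was not tested.

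The promoter at the downstream start of Hoxd11 in RefSeq (GRCm38.p6, chr2:74682073-74682372, plus strand) is shown because Hoxd11 was found in this library and not in enriched KPC-3403. Capitals mark its 1 match to the Hox-Pbx pattern, read on the other strand. The promoter at the upstream start (chr2:74679308-74679607) holds 0 matches and is not printed.
Hoxd11: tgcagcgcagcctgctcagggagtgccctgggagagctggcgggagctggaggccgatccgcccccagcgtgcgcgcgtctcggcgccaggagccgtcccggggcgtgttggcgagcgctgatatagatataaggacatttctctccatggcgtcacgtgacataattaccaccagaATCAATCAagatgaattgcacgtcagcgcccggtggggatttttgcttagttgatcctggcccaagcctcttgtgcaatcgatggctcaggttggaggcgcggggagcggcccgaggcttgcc

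**Figure D4:**
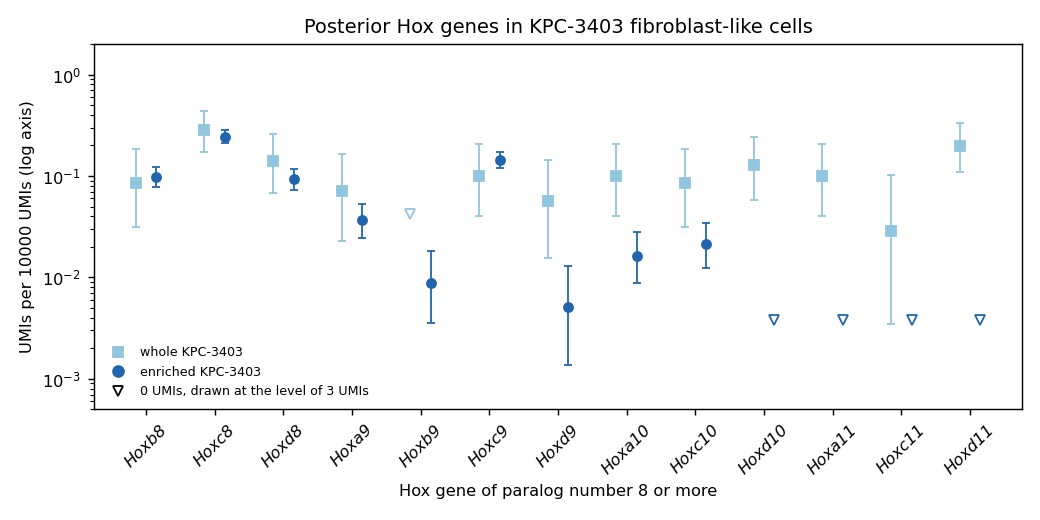
UMIs per 10000 UMIs (log axis) of Hox genes of paralog number 8 or more in the fibroblast-like cells of whole and enriched KPC-3403, with exact Poisson 95% intervals and open triangles for 0 UMIs drawn at the level of 3. Hoxd11 reaches 0.199 in whole KPC-3403 fibroblast-like cells and is 0 in the enriched ones.

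In the tumour-like cells of enriched KPC-4545, the Hox RNA was nearly all of 1 cluster. Hoxb gave 63.5% of Hox UMIs in fibroblast-like cells and 98.8% in tumour-like cells of that library (98 to 99.3, 1211 of 1226 UMIs). Paralog groups 9 to 13 gave 5.22% in fibroblast-like cells (1.94 to 11) and 22.3% in tumour-like cells (20 to 24.7). Within Hoxb, Hoxb2 gave 39.7% of the UMIs of enriched KPC-4545 fibroblast-like cells, Hoxb8 1.37% and Hoxb9 0, and in enriched KPC-3403 fibroblast-like cells these shares were 43.6%, 8.36% and 0.75%. The tumour-like cells leaned to the posterior end, with 20.9% of Hoxb UMIs from Hoxb9, 19.4% from Hoxb8, 14.4% from Hoxb7, 16.9% from Hoxb6, 5.7% from Hoxb5, 10.3% from Hoxb4, 2.56% from Hoxb3 and 8.67% from Hoxb2. Hoxb13, the posterior-most Hoxb gene and a regulator in tail and prostate, had 14 UMIs in 13 of these cells (1.78%) and 0 in the stromal classes and in the other tumour-like cells, while unnamed clusters 3 and 15 of the same library held 1 UMI each.

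Hoxb9 (ENSMUSG00000020875, chr11:96271457-96276595, plus strand), which acts at the thoracic level, was at 0 of 485960 UMIs in fibroblast-like cells and at 0.0953 UMIs per 10000 in tumour-like cells of enriched KPC-4545 (upper limit of the ratio 0.803). Hoxb8 (ENSMUSG00000056648, chr11:96281905-96285315, plus strand) was at 0.0206 and 0.0885 in the same order (ratio 0.233, 0.00586 to 1.31), and Hoxb6 at 0.103 and 0.0772 (ratio 1.33, 0.428 to 3.16). Hoxb7 was at 0.268 and 0.0655 (ratio 4.08, 2.13 to 7.17) and Hoxb2 at 0.597 and 0.0395 (ratio 15.1, 9.64 to 23). Hoxb5, Hoxb4 and Hoxb3 had ratios of 4.75 (1.69 to 10.9), 5.68 (2.94 to 10.1) and 10.6 (3.61 to 25.7). The ratio was thus lowest at the posterior genes Hoxb8 and Hoxb9 and highest at the anterior genes Hoxb3 and Hoxb2. In enriched KPC-3403 the same ratios were at least 41.3 for Hoxb8, at least 33.9 for Hoxb6, at least 57.7 for Hoxb7 and 323 for Hoxb2 (88.9 to 2677). Of the 8 Hox genes with 20 or more UMIs in enriched KPC-4545, 5 were at least 2-fold higher in fibroblast-like than in tumour-like cells (24.8% of all genes) and 2, Hoxb8 and Hoxb9, lower (19.6%). In enriched KPC-3403 18 of 18 were higher (18.8%) and 0 lower (20.8%), and in whole KPC-3403 2 of 2 were higher (17.7%) and 0 lower (20.3%). The KPC-3403 genes reached 20 UMIs almost wholly through fibroblast-like cells. The 8 genes of enriched KPC-4545 each had more UMIs in tumour-like than in fibroblast-like cells (105 and 29 for Hoxb2, 253 and 0 for Hoxb9). They thus passed mainly through tumour-like cells, and the counts of all 3 libraries are a description only.

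The RefSeq promoter of Hoxb8 (GRCm38.p6, chr11:96281655-96281954, plus strand) is given as that of a leading gene of these cells. Capitals mark its match to TGATNNAT, which 8.85% of 32851 promoters of this length and 4 of the 24 Hox promoters (16.7%, of 22 Hox genes matched) hold on either strand. Of the same Hox promoters, 15 held CCAAT (62.5%, against 37.4% of all), 4 held TATAAA (16.7%, against 13.6%) and 2 held TAATTA, a homeodomain core (8.33%, against 5.29%). Their median GC content was 57.7%, against 52.7% over all promoters. A match describes letters in this window only.
Hoxb8: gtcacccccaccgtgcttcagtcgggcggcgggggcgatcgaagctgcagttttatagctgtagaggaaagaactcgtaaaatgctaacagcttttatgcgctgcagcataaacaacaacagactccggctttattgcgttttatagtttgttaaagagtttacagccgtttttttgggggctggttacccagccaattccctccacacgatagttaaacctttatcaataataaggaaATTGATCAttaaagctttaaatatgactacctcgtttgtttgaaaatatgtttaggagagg

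**Figure D5:**
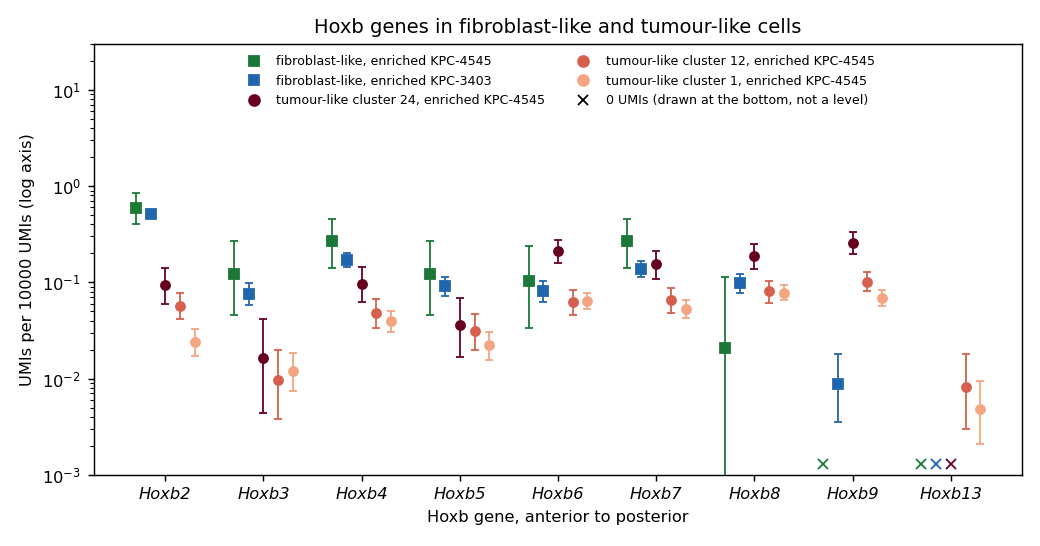
UMIs per 10000 UMIs (log axis) of each Hoxb gene, anterior to posterior, in the fibroblast-like cells of both enriched libraries and in 3 tumour-like clusters of enriched KPC-4545, with exact Poisson 95% intervals and crosses for 0 UMIs. Hoxb2 is at 0.597 and 0.515 in the fibroblast-like cells, above the tumour-like clusters, while Hoxb9 is at 0 and 0.00886, under all 3 of them.

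A Hoxb UMI was found in 277 of the 732 tumour-like cells of enriched KPC-4545 (37.8%, 34.3 to 41.5), and a UMI of another Hox cluster in 8 (1.09%). These cells had 1.06% of Hox UMIs in Hoxa and 0.163% in Hoxc, against 10.7% and 10.7% in the free RNA of that library, which held 28 Hox UMIs, 78.6% of them Hoxb. The level varied between tumour-like clusters, at 1.05 Hox UMIs per 10000 in cluster 24, led by Mt3, Krt6a and Areg, 0.471 in the cycling cluster 12 and 0.374 in cluster 1, led by Sprr2k. Hoxb UMIs were in 51 of 59 cells of cluster 24 (86.4%), in 64 of 141 of cluster 12 (45.4%) and in 162 of 526 of cluster 1 (30.8%). Taken over the cells of all libraries, the median depths of these clusters were 42832, 54554 and 29217 UMIs. Cluster 24 over cluster 1 gave a Hoxb ratio of 2.86 (2.46 to 3.31), with Hoxb9 at 3.77 (2.73 to 5.16), Hoxb2 at 3.86 (2.2 to 6.6) and Hoxb3 at 1.34 (0.333 to 4.01). Of 8 Hox genes 6 were at least 2-fold higher in cluster 24 (3.92% of all genes) and 0 lower (9.67%).

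Tumour-like cells of whole KPC-4545 did not carry this signal. The enriched level was at least 17.5-fold higher than the whole one at a floor of 3 UMIs, and within cluster 1 alone (526 and 14 cells) at least 4.9-fold higher. The class lay in different clusters in these libraries: enriched cells were in clusters 1, 12 and 24 (526, 141 and 59 cells), and whole cells in clusters 2, 7, 9 and 20 (6, 4, 17 and 18 cells) beside 14 in cluster 1 and 3 in cluster 12, while clusters 2 and 7 held 4 and 2 enriched cells and clusters 9 and 20 none. The tumour-like cells of these libraries also differed in markers, with a tumour marker sum of 63.4 in enriched (18 of 18 found) and 109 in whole cells (16 of 18, Lcn2 and Crabp1 at 0), Epcam at 0.00151 and 4.18, and Vim, a mesenchymal filament gene, at 65.2 and 28.8. Xist, the RNA of the inactive X chromosome, was at 0.00151 and 0.0526 UMIs per 10000 in enriched and whole KPC-4545, and at 5.31 and 6.39 in enriched and whole KPC-3403. The part of the sort in the difference was not tested.

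Whether the lines differed in the tumour-like cells was tested with edgeR over the 4 libraries. Of 12217 genes, 0 were higher and 0 lower in KPC-4545 (1252 at an unadjusted p under 0.05), while DESeq2 called 88 higher and 101 lower. No Hox gene passed the filter on low counts. Without the filter 20 were tested and 0 called (8 at an unadjusted p under 0.05). With the whole KPC-4545 library left out, whose tumour-like cells had 0 Hox UMIs, KPC-4545 is 1 library with no spread of its own. Hox genes can then pass the filter through that library alone. The median log2 difference of those tested was 6.11, and no call is drawn from this fit.

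Whether the fibroblast to tumour difference itself depended on the line was tested as an interaction in the same edgeR fit, a test added after seeing the data. It rests on 1 KPC-4545 library, the enriched one, so that the line and that library cannot be told apart. That library is fitted exactly, so p in this test reflects only the spread between the KPC-3403 libraries and none within KPC-4545. The tumour-like cells of whole KPC-4545, which did not enter, had 0 Hox UMIs. Of the Hox genes 22 were tested, after the same filter on low counts as in the fibroblast to tumour test. In KPC-3403 tumour-like cells Hoxb2, Hoxb4, Hoxb7 and Hoxb8 had few or no UMIs, so their fitted differences rest on values at or near 0 there. Of 13042 genes, 180 had a larger difference in KPC-4545 (1.38%) and 181 a smaller one (1.39%). The Hox genes called were 4, all smaller in KPC-4545: Hoxb2 (edgeR adjusted p = 0.00778), Hoxb4 (0.0241), Hoxb7 (0.0137) and Hoxb8 (0.00493). Hoxb4, which is known for expanding blood stem cells, was at 0.268, 0.171 and 0.128 UMIs per 10000 in the fibroblast-like cells of enriched KPC-4545 and of enriched and whole KPC-3403, against 0.0471, 0.000797 and 0 in tumour-like cells. Hoxb5 was at 0.123, 0.0911 and 0.114, against 0.026, 0 and 0 (adjusted p = 0.0582), and Hoxb6 had an adjusted p of 0.0783 and Hoxb3 of 0.253. DESeq2 called 0 Hox genes in this test (6 at an unadjusted p under 0.05).

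The lists of Hox partners and regulators stood against shares of 12.3% higher and 10.1% lower over all genes. Of the 9 TALE cofactor genes tested, 2 were higher in fibroblast-like cells, Meis1 and Pknox2, and 0 lower, with a median log2 difference of 0.29 against -0.12 over all genes. Meis1 was at 0.473, 0.228 and 0.326 UMIs per 10000 in the fibroblast-like cells of enriched KPC-4545 and of enriched and whole KPC-3403, against 0.0987, 0.0789 and 0.0317 in tumour-like cells (log2 2.20, SE 0.42, edgeR adjusted p = 0.0103). Meis2 (adjusted p = 0.21) and Pbx2 (0.654) did not pass. Of 11 noncoding RNAs of the Hox clusters, 5 were tested and all 5 were higher in fibroblast-like cells, a count that describes those 5 only, since an RNA near 0 in tumour-like cells passes the filter through the cells where it is high. Hotairm1, transcribed from the anterior end of Hoxa, was at 0.309, 0.506 and 0.497, against 0.0595, 0.0287 and 0.0385 (log2 3.35, SE 0.48, adjusted p = 0.00336).

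Among 8 ParaHox, Cdx and Evx genes 2 were tested and both were lower in fibroblast-like cells. Pdx1, the pancreas determinant, was at 0, 0.00127 and 0 in fibroblast-like cells, against 0.176, 0.201 and 0.186 in tumour-like cells (log2 -7.34, SE 0.71, edgeR adjusted p = 0.000779). Cdx2, the intestinal homeobox gene, was at 0 in fibroblast-like cells, against 0.000377, 0.108 and 0.158 in tumour-like cells (adjusted p = 0.00978). Of 19 polycomb and trithorax genes, which keep Hox genes off or on, 0 were higher and 3 lower (Ezh2, Cbx7 and Cbx8), with a median log2 of -0.50 and a share lower that is near that of all genes (10.1%). Of 10 genes of retinoic acid signalling, an inducer of anterior Hox genes in embryos, 2 were higher and 0 lower, with a median log2 of 0.85. Of these, Aldh1a2, which makes retinoic acid, was at 9.4, 2.22 and 2.65 in fibroblast-like cells, against 0.000753, 0.0231 and 0.00905 in tumour-like cells (log2 8.83, SE 1.64, adjusted p = 0.0283).

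Of 30 transcription factor genes of mesoderm position, 24 were tested, 9 were higher in fibroblast-like cells (Barx1, Foxf1, Gata6, Hand2, Hic1, Isl1, Meox2, Tcf21 and Wt1) and 6 lower (Foxf2, Gata4, Gata5, Irx3, Irx5 and Pitx1), with a median log2 of 2.90. Pitx1, a hindlimb gene, was at 0.0617, 0.0215 and 0 in fibroblast-like cells, against 0.79, 0.115 and 0.0475 in tumour-like cells (log2 -3.04, SE 0.52, edgeR adjusted p = 0.00651). Of 15 foregut and pancreas factor genes 13 were tested, with 1 higher and 10 lower in fibroblast-like cells. Onecut2, among the lower genes (log2 -7.96, SE 1.01, adjusted p = 0.00444), was at 0.168 UMIs per 10000 in the tumour-like cells of enriched KPC-4545, where Hoxb was found, against 2.91 in whole KPC-4545, 3.86 in enriched KPC-3403 and 3.92 in whole KPC-3403.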

How the data were processed

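Gene expression was measured with 10x 5′ single-cell libraries. The authors deposited raw UMI counts per gene and barcode, which had not been normalized. The build is mm10 and the counter Cell Ranger, version 6.1.1 per the submitters' processing notes and 4 per the file headers.

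A cell was a barcode with 500 UMIs, 250 genes and no more than 20% mitochondrial UMIs. Below 5000 UMIs its profile had to be distinct from free RNA, the barcodes of at most 100 UMIs (1000 draws, false discovery rate 0.01). Copies of a barcode with 10-fold more UMIs in another library (151 in all) were removed, a step chosen after seeing the data, as were 22 and 2 doublets by score in enriched and whole KPC-4545 and 51 and 10 in enriched and whole KPC-3403 (0.8% expected per 1000 cells). Clustering in scanpy 1.11.5 with leidenalg 0.10.2 (2000 variable genes, 30 components, 15 neighbours, resolution 1) gave 31 clusters, named from marker lists. Cells are not replicates, so counts were summed per class and library.

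Sums were tested with edgeR 4.0.16 (quasi-likelihood, TMM, filterByExpr, Benjamini-Hochberg over all genes tested at 0.05) in R 4.3.3, with DESeq2 1.42.0 as an alternative. Comparisons within 1 library used exact intervals (scipy 1.17.1), genes with 20 or more UMIs in both sums together and a 2-fold limit, with 0.5 UMIs added to both sums for the fold. Alternatives covered scaling, filters on counts and cells, doublets, cluster resolution, marker gene gates and left-out libraries. The edgeR steps were tested on simulated data. Positions are from GENCODE M21. Hox genes with 20 or more UMIs over the 4 classes are given by library and the others by counts. Up to 4 members of each of 7 gene lists, those with the most UMIs, were eligible to be given by level. In some lists the members called in the fibroblast to tumour test were named as well, whatever their UMI count. The members and lists were chosen with earlier results of these data known. Replicate numbers follow the order of deposit (1 enriched, 2 whole) and are not from the labels. Values of 1 Hox gene and 1 listed cofactor gene are not reported here.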

Additional observations from a re-analysis of the deposited data

Results flagged for a closer look

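The difference between fibroblast-like and tumour-like cells in the 1 KPC-4545 library that could be fitted (enriched) was set against that in the KPC-3403 libraries by an edgeR interaction test, which called Hoxb2 (adjusted p = 0.00778, range over alternatives 3.58e-09 to 0.11), Hoxb4 (0.0241, 2.58e-05 to 0.28), Hoxb7 (0.0137, 1.15e-05 to 0.11) and Hoxb8 (0.00493, 3.8e-08 to 0.0703). DESeq2 called none of Hoxb2, Hoxb4, Hoxb7 and Hoxb8, and in the main fit the line and the enriched KPC-4545 library cannot be told apart. The tumour-like cells of whole KPC-4545, which did not enter the main fit, had 0 Hox UMIs. No spread within KPC-4545 enters the p of the main fit. For each of these 4 genes the fibroblast to tumour ratio was smaller in the 1 KPC-4545 library of the main fit than in enriched KPC-3403.

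Hox UMIs also appeared outside the cells compared. Barcodes over the mitochondrial limit of 20% held 106 Hox UMIs in enriched KPC-4545 (1224 barcodes), of which 103 were Hoxb (97.2%), and 31 in enriched KPC-3403 (213 barcodes), of which 11 were Hoxb (35.5%). Unnamed clusters of enriched KPC-4545 held 64 Hox UMIs in cluster 3 (63 Hoxb), 11 in cluster 5 (10 Hoxb) and 43 in cluster 15 (43 Hoxb). In both places the KPC-4545 UMIs were mostly of Hoxb, as in that library's tumour-like cells.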

How the results depend on the processing

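No Hox gene log2 difference between fibroblast-like and tumour-like cells changed sign under an alternative. Levels, shares and counts were scored only as same or moved, so a reversal could not be recorded for them. With Hox genes allowed in the clustering, 0 were among the variable genes, so the 22 log2 differences of that alternative repeat the main fit. Of 324 Hox gene log2 differences under alternatives, 287 stayed on the same side of the threshold, 7 lost and 30 gained it, and 66 of 72 levels and 86 of 98 code shares moved by less than their error. In the fibroblast to tumour test, leaving out 1 library in turn gave 3 to 20 Hox genes higher, 672 to 2322 genes higher and 323 to 1922 lower, marker gene gates gave 643 lower, and the fit with no replicate block called 14 Hox genes. In the line test, 20 genes were higher and 29 lower without the filter, 88 and 101 with DESeq2, 1 higher with preparation as a replicate block, and leaving out 1 library gave 0 to 94 higher, 0 to 288 lower and 0 to 1 Hox genes. The interaction called 7 Hox genes with gates, 7 without the filter and 0 with DESeq2, and was not rerun without single libraries, which leaves no residual degrees of freedom. With gates the fibroblast-like level was 0.973 in enriched KPC-4545 (posterior share 11.4%) and 2.38 in enriched KPC-3403 (posterior 9.89%, Hoxb 39.3%), and the submesothelial-like level was 2.62 (Hoxb 40.4%, and 39.6% at resolution 2). The mesothelial-like Hoxb share was 40.3% with gates, 37.1% at resolution 2, 39.5% with 1000 UMIs and 500 genes per cell, 39.6% at 10% mitochondrial UMIs and 40.4% with doublets kept. The enriched KPC-4545 tumour-like level was 0.493 at resolution 2, and its posterior share 25.1% with doublets or shared barcodes kept. Removing free RNA at 10% left 0 in the tumour-like cells of both KPC-3403 libraries. The cause of each change was not tested. The 115 Hox UMIs of enriched KPC-4545 fibroblast-like cells and the 49 whole KPC-3403 cells set the limits. Replicate numbers follow the order of deposit; here each number marks a preparation, which the block of the line test uses.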
